A study of Homo sapiens with 8 samples.

Results

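Resistant sublines of the A204 cell line, each kept in its own tyrosine kinase inhibitor (TKI), were compared with parental A204 cells given the same drugs. The comparison took 6 of the 8 arrays in the series, chosen by their labels: 3 sublines and 3 parental cultures, matched by drug into 3 pairs. A204 is an established human malignant rhabdoid tumor line that has lost SMARCB1, a SWI/SNF remodeler component. Parental cells in drug received 5 µM dasatinib, pazopanib or sunitinib, with 1 array for each drug, and how long they were treated is not given in the sources used here. The resistant sublines DasR, PazR and SunR were raised from A204 by raising the dose stepwise from 500 nM over 6 weeks, and each was profiled in 5 µM of the drug it had been selected in. Each subline is a single line with 1 array, so that the spread among the 3 sublines is a spread among drugs and lines. The other 2 arrays, untreated 1 and untreated 2, are parental cells labelled as having no drug, whereas the methods speak of DMSO, and they serve here as a reference that entered no main test.

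Dasatinib, pazopanib and sunitinib block several kinases at once, among them the platelet-derived growth factor receptors. PDGFRA is a receptor tyrosine kinase that passes growth and survival signals to the ERK and AKT pathways once its ligand joins a pair of receptor chains. Cells kept in such drugs can lose the target, switch to another receptor or change their state, and blocked growth signaling lowers the transcription of cell cycle genes.

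Each array gave a log2 intensity for 48107 probes, of which 30113 had exactly 1 gene symbol, covering 20046 genes, and 17986 had none. All arrays had the same median, 6.67, because the authors quantile normalized them, so precision is limited by how few arrays there are. Vimentin (VIM), an intermediate filament of mesenchymal cells, read 14.24 to 14.67 over the 8 arrays. The epithelial keratins KRT8 and KRT18, often found in rhabdoid tumors, stayed between 6.52 and 6.86, near the array median. The brighter probe of SMARCB1 read 6.66 to 6.93. No gene of the leukocyte, epithelial, endothelial, skeletal muscle or fibroblast marker lists passed the test, although CD68, a lysosomal protein of macrophages and many tumor lines, was bright (10.85 to 11.87) and DCN, a matrix proteoglycan, read 9.06 in DasR, 8.51 in PazR and 6.51 in SunR against 7.20 to 7.40 in the treated parental arrays.

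The untreated arrays did not stand together. Across probes, untreated 1 correlated with the sublines at 0.974 to 0.988 and with treated parental cells at 0.968 to 0.972, while untreated 2 correlated with the sublines at 0.961 to 0.975 and with treated parental cells at 0.973 to 0.984. With a term that put untreated 1 in a set with the sublines and untreated 2 in a set with the treated parental arrays, 0 probes were called higher by limma and 1 lower, which had no gene name. At an unadjusted p under 0.05, that fit kept 66 of the 154 probes described below as shared and higher, and 87 of the 330 shared and lower. The labels give no batch, so a difference between array sets and a difference between sublines and treated parental cells cannot be told apart wherever untreated 1 stood with the sublines. For this reason untreated values, or positions from 0% at the treated parental mean to 100% at the subline mean, are given beside many of the genes. Over the shared probes, the term moved the median change from 1.5 to 0.95 for the higher and from -1.5 to -0.46 for the lower ones. Of these, 23 higher and 71 lower probes turned sign. The sets were drawn after seeing the data. The size of the term rests on untreated 1 against untreated 2 alone, 1 array each, so a lost call or turned sign cannot settle a gene. For each probe the estimate with the term is the main change less the difference between untreated 1 and untreated 2. It therefore restates the untreated values and is no separate evidence for or against a gene.

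Resistant sublines and treated parental cells differed at 2906 probes by limma at an adjusted p under 0.05, or 6.04% of those tested. Of these, 1302 were higher in the sublines (2.71%) and 1604 lower (3.33%). All but 1 had the same sign in the 3 pairs, against 43.0% of all probes. A call with so few arrays nearly always needs groups that do not overlap, which fixes this sign. The agreement is therefore no separate support. Leaving out 1 array moved these counts to between 390 (without parental cells in pazopanib) and 1639 (without parental cells in sunitinib) higher, and to between 642 and 2251 lower for the same arrays. A stricter group, called shared here, had a difference over 1 on the log2 scale, that is over 2-fold, in every drug-matched pair. It held 154 higher probes (0.32% of those tested, 110 named genes) and 330 lower probes (0.686%, 157 named genes), with median changes of 1.5 and -1.5. A difference over 2 in every pair was seen for 5 higher and 16 lower probes. The probe with the largest smallest-pair difference among the higher ones had no gene name and rose by 2.90, 4.83 and 5.42 in the dasatinib, pazopanib and sunitinib pairs.

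The pairs did not resemble each other equally. Their differences correlated across probes at 0.723 for dasatinib and pazopanib and at 0.465 for dasatinib and sunitinib, with pazopanib and sunitinib between, a description over 48107 probes that are not independent replicates. A difference over 1 in all 3 pairs with 1 sign was seen at 490 probes, in 2 pairs at 952 and in 1 pair only at 1939. Opposite signs over 1 were seen at 51 probes, and 43 of those set dasatinib against sunitinib.

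**Figure D1:**
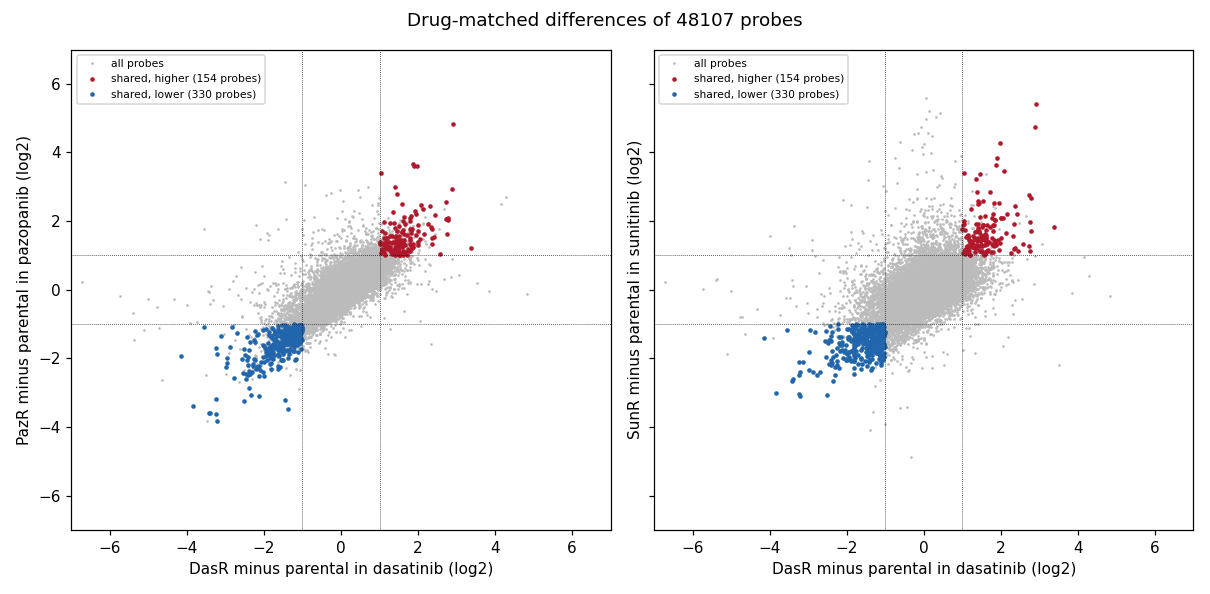
Each point is a probe; the x axis gives DasR minus parental cells in dasatinib and the y axes give the pazopanib (left) and sunitinib (right) pairs, all as log2 differences, with dotted lines at a difference of 1. The 154 shared higher probes (red) and 330 shared lower probes (blue) lie in opposite corners, and the cloud is wider on the right, where the correlation is 0.465 against 0.723 on the left.

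Where the untreated arrays stood divided the shared calls into 3 kinds. For 56 higher and 55 lower probes both untreated arrays lay nearer the treated parental mean than the subline mean. For 68 higher and 242 lower probes untreated 1 lay nearer the sublines and untreated 2 nearer the treated parental cells. For 28 higher and 30 lower probes both lay nearer the sublines, and for 2 higher and 3 lower probes untreated 2 did so alone. The median position of untreated 1, from 0% at the treated parental mean to 100% at the subline mean, was 72.4% for the higher and 93.0% for the lower probes, against 13.5% and 17.4% for untreated 2.

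**Figure D2:**
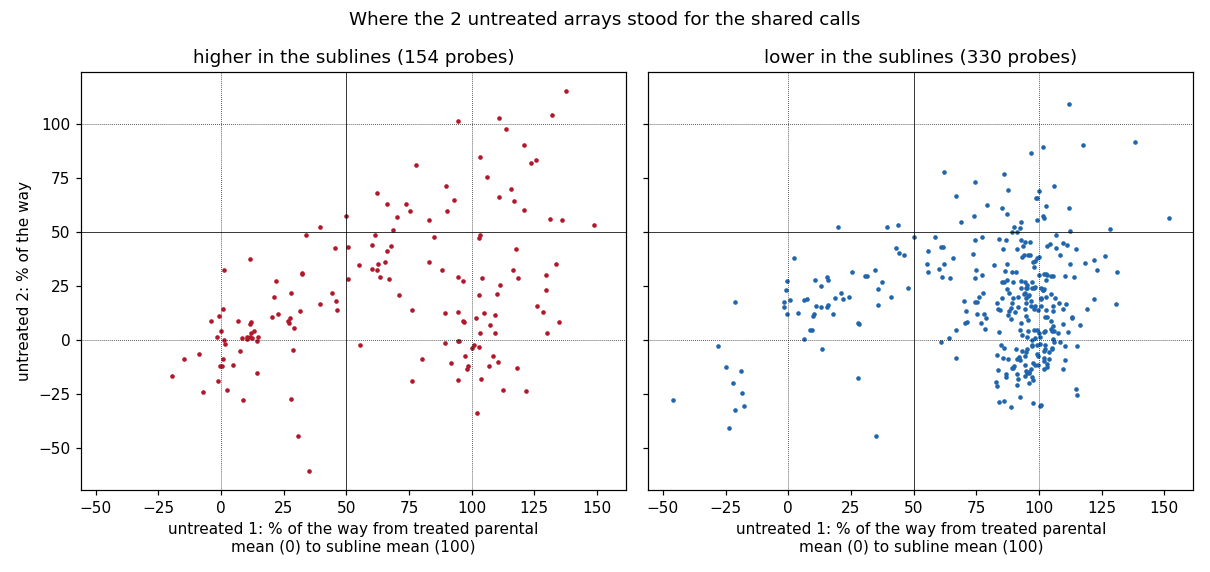
Each point is a shared probe, with the position of untreated 1 on the x axis and of untreated 2 on the y axis, in percent of the way from the treated parental mean (0) to the subline mean (100), for probes higher (left) or lower (right) in the sublines. The dense column at the lower right of the right panel holds most of the 242 lower probes for which only untreated 1 stood with the sublines, and the points near the origin are those in which both untreated arrays stood with treated parental cells.

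The first kind held PDGFRA and most of the leading named genes, and the stretches before the starts of 4 of them are shown first, since each moved the same way in all 3 sublines, PDGFRA and RGS17 downward and AKR1C4 and MSX1 upward. They are the 250 bases before the start in RefSeq (GRCh38.p14), written 5′ to 3′ on the strand of the gene, with capitals marking the letters CCAAT (the NF-Y box), TTTGAA (the cell cycle homology region, CHR), TGACNNNGC (the core of the antioxidant response element) or TATAAA, each on either strand. In that order, the NF-Y box, CHR, antioxidant core and TATA letters occurred in 32.0%, 13.3%, 10.9% and 10.7% of 35116 such stretches, and matches may overlap. PDGFRA lies at chr4:54229043-54229292 (+ strand, the more upstream of 2 starts), RGS17 at chr6:153131283-153131532 (- strand), AKR1C4 at chr10:5196587-5196836 (+ strand) and MSX1 at chr4:4859415-4859664 (+ strand).
PDGFRA: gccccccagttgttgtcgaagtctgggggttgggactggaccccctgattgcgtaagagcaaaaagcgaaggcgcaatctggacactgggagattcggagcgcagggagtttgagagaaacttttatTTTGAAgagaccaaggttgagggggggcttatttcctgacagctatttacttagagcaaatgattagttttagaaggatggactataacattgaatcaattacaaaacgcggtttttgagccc
RGS17: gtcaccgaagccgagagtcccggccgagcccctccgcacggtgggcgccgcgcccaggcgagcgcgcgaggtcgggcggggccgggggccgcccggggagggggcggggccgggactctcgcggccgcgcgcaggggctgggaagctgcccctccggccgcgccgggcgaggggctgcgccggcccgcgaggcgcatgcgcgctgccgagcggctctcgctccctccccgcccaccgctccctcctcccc
AKR1C4: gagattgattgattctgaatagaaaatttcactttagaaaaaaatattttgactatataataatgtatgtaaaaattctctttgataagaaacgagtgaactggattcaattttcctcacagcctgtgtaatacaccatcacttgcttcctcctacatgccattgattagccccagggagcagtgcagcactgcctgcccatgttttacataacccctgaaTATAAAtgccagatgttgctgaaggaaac
MSX1: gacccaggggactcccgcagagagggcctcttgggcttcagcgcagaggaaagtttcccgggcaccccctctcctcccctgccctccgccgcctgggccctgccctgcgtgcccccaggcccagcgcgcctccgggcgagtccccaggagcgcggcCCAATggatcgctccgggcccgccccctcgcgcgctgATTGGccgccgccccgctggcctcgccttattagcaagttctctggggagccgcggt
PDGFRA held 1 TTTGAA match, AKR1C4 a TATAAA match 29 to 24 bases before its start, MSX1 2 CCAAT matches and RGS17 none of the 4. These 4 stretches had no motif in common.

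PDGFRA fell over 2 on the log2 scale in every pair, on both of its probes. The more changed probe read 11.94, 12.24 and 11.30 in parental cells in dasatinib, pazopanib and sunitinib, and 8.10, 8.84 and 8.29 in DasR, PazR and SunR. The untreated arrays read 11.11 and 11.08, so that every parental array was above every subline. The change was -3.42 ± 0.29 (SE, n = 3 and 3; limma, adjusted p = 0.00025), or 10.7-fold. With the array set as a term the estimate was -3.44, but the adjusted p in limma was 0.274. A second probe fell by 2.97, 2.13 and 2.35 in the 3 pairs, and its untreated arrays read 12.50 and 12.08 against 12.22 to 12.60 in treated parental cells.

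Other receptor tyrosine kinases gave no higher call. Of 37 measured, 0 were called higher and 3 lower (8.11%, against 3.83% of all genes called lower and 7.32% called in either direction), and the median change was 0.01. After PDGFRA these were EPHB4, an ephrin receptor, at 10.99, 10.77 and 10.44 in parental cells and 9.41, 9.27 and 9.75 in the sublines, and FGFR4, a fibroblast growth factor receptor, with pair differences of -0.40, -1.14 and -1.39. The untreated arrays of EPHB4 read 9.72 and 9.83, near the sublines, and those of FGFR4 stood at 70.2% and 18.1%. The call of EPHB4 was lost without parental cells in dasatinib or pazopanib or without PazR (limma, largest adjusted p = 0.0796), and that of FGFR4 without parental cells in pazopanib or PazR (limma, largest adjusted p = 0.0667). FGFR1 had means of 7.81 and 7.83 in the 2 groups on its brighter probe (limma, adjusted p = 0.945), and its other probe changed by -0.04 (limma, adjusted p = 0.835). PDGFRB read 6.21 to 6.51 in all 6 arrays. AXL, a receptor that is often raised in TKI resistance, had a mean change of -1.46 that missed the threshold (limma, adjusted p = 0.0531), and MET and EGFR changed by 0.55 and 0.17 (limma, adjusted p = 0.366 and 0.293). EGFR read 6.56 to 6.87 in the 6 arrays, near the array median. Means can hide larger differences of single pairs, which were not tested. In the dasatinib, pazopanib and sunitinib pairs MET differed by -0.33, 0.32 and 1.66, and FGFR3 by 2.05, -0.92 and -1.65. EPHA2 differed by 0.04, 0.64 and 1.65, and EPHA4 by 0.24, 0.2 and 1.61. Of 28 growth factors for such receptors 1 passed (3.57%, near the 3.83% of all genes called lower). This was PDGFB, a PDGF chain, with 9.18, 9.27 and 7.88 in parental cells and 6.74, 7.37 and 7.79 in the sublines. Its difference was -2.44 in the dasatinib pair but -0.09 in the sunitinib pair, its untreated arrays stood at 74.0% and 46.8%, and its next probe missed the threshold (limma, adjusted p = 0.0622). Leaving out either array of the dasatinib or the pazopanib pair ended its call (limma, largest adjusted p = 0.145).

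Next to PDGFRA stood RGS17, which shortens signaling by G protein alpha subunits. It read 10.63 to 11.14 in treated parental cells, 7.76, 7.96 and 7.57 in DasR, PazR and SunR, and 10.72 and 10.34 in the untreated arrays. The change was -3.16 ± 0.23 (SE; limma, adjusted p = 8.97e-05) and the pairs were nearly equal (-3.25, -3.18 and -3.05). With the array set as a term it was -3.55 (limma, adjusted p = 0.0873). SCRG1, a gene expressed in glia and in mesenchymal progenitors, fell from 10.43, 10.85 and 10.21 to 7.02, 7.24 and 7.54, with untreated arrays at 10.55 and 9.93. CDH19, a cadherin of Schwann cell precursors, fell from 9.81, 10.37 and 8.96 to 6.56, 6.75 and 6.47, near the array median, while its second probe changed by -0.08 (limma, adjusted p = 0.591). That second probe read 6.49 to 6.70 in the arrays in drug, also near the array median, where a lack of change says little. OTP, a homeobox factor of hypothalamic neurons, read 10.08 to 10.46 in treated parental cells and 7.59 to 8.07 in the sublines. COL9A2, a cartilage collagen chain, read 8.64 to 9.86 in treated parental cells and 6.51 to 6.99 in the sublines. RADX, which acts at stalled replication forks, and RNF128, a ubiquitin ligase, fell by 2.49 and 2.41, and 2 further RNF128 probes changed by -0.01 and -0.05.

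The lists of neural crest and neuronal genes had 4 of 21 and 3 of 24 members called lower (19% and 12.5%, against 3.83% of all genes), with 0 higher in either (3.49% of all genes), although their medians were only -0.06 and -0.10. These and all other lists were chosen with earlier results of these data known. Their shares describe the members and are no test of enrichment. Besides SCRG1 and CDH19, the neural crest genes called were SOX9 and SNAI2, transcription factors, with changes of -1.20 and -0.89 and untreated arrays at 80.1% and 49.1%, and 46.4% and 94.2%. The call of SNAI2 was lost without parental cells in dasatinib or pazopanib, DasR or SunR (limma, largest adjusted p = 0.206), and its other probe did not pass (-0.44; limma, adjusted p = 0.472). SOX9 lost its call without parental cells in pazopanib (limma, adjusted p = 0.0509). The neuronal genes called were SNAP25, which drives vesicle fusion, MAP2, a dendritic microtubule protein, and NCAM2, an adhesion molecule. SNAP25 read 8.92, 9.16 and 8.25 in treated parental cells and 6.52, 6.68 and 6.91 in the sublines, with untreated arrays at 8.79 and 8.21. The call of NCAM2 was lost without parental cells in dasatinib or pazopanib (limma, largest adjusted p = 0.0891).

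Imprinted genes had 5 of 20 members lower and 1 higher (25% and 5%, against 3.83% and 3.49% of all genes). Of the 5, SGCE, PEG10 and PPP1R9A lie on chromosome 7, PLAGL1 on 6 and KCNQ1OT1 on 11. Members on the same chromosome may not count as separate. SGCE fell the most, by 2.49, with pair differences of -4.15, -1.92 and -1.41. PPP1R9A changed by only -0.54 and read 6.33 to 7.03 in the arrays in drug, near the array median. The call of KCNQ1OT1 was lost without parental cells in dasatinib or pazopanib (limma, largest adjusted p = 0.0613). PEG10, a retrotransposon-derived gene, read 9.64, 9.17 and 8.41 in treated parental cells and 6.68, 7.18 and 7.23 in the sublines. Its untreated arrays read 9.51 and 8.71. Its other probes changed by -0.48 and 0.0 and did not pass (limma, adjusted p = 0.0597 and 0.987). Matrix-related genes moved both ways. MMP1, a collagenase, was lower (9.57, 9.67 and 10.21 in parental cells and 6.69, 8.0 and 7.81 in sublines). LAMB1, a laminin chain, was higher (6.90 to 6.94 and 8.04 to 8.40). COL12A1 rose by 1.16 on 1 probe, while its other probe changed by -0.09 (limma, adjusted p = 0.62). ID2, an inhibitor of basic helix-loop-helix factors and a BMP target, fell by 1.37, 3.47 and 2.33.

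Among the higher genes AKR1C4, an aldo-keto reductase of steroid and bile acid metabolism, led the named ones. It read 8.07, 8.36 and 7.71 in parental cells in dasatinib, pazopanib and sunitinib and 10.94, 11.29 and 12.45 in DasR, PazR and SunR, with untreated arrays at 8.55 and 8.03. The difference was 3.52 ± 0.36 (SE; limma, adjusted p = 0.000393), or 11.4-fold, and was largest in the sunitinib pair. Its other probe changed by -0.10 (limma, adjusted p = 0.599), so that the gene rests on 1 of 2 probes. That other probe read 6.31 to 6.65 in all arrays, below the array median, where a lack of change says little. The same holds for other probes named here that read near the array median. PPP2R2C, a B subunit of protein phosphatase 2A (PP2A), read 6.80 to 6.98 in treated parental cells, 6.90 and 7.17 in untreated cells and 9.36 to 9.75 in the sublines, and rose by 2.73, 2.56 and 2.77 in the 3 pairs. A second PPP2R2C probe rose by 1.94, and 2 more had differences of 0.06 and 0.07 that did not pass. MSX1, a homeobox factor of craniofacial and limb tissue, read 9.39, 9.38 and 9.91 in treated parental cells and 11.47, 11.85 and 13.38 in the sublines. ATP1B1, the beta subunit of the sodium-potassium pump, rose from 6.73, 6.65 and 6.48 to 8.71, 10.27 and 10.76. Its difference in the dasatinib pair (1.98) was smaller than in the other 2 (3.62 and 4.29). Its brighter probe rose by only 0.72, 1.75 and 1.92 and so was not shared. That probe lost its call without parental cells in dasatinib or pazopanib or without PazR (limma, largest adjusted p = 0.0821). COXFA4L3, a mitochondrial protein, rose by 3.05 and 3.11 on 2 probes, and again less in the dasatinib pair. A further COXFA4L3 probe, which read 6.43 to 7.30 in the arrays in drug, changed by 0.44 and did not pass (limma, adjusted p = 0.101). CYFIP2, of the WAVE actin complex, rose by 2.22 on 1 of 3 probes. STAMBPL1, a deubiquitinase, read 6.64 to 6.98 in treated parental cells and 8.52 to 9.03 in the sublines, with untreated arrays at 6.83 and 6.89. CD58, the ligand of the T cell receptor CD2, rose by 2.12 and 1.86 on its 2 probes. Also in this kind were ANGPTL4, a regulator of lipoprotein lipase, HSPA12A, CA8 and LRATD2, with changes of 2.16, 1.88, 2.05 and 2.07. The other probes of ANGPTL4 (0.16 and 0.12) and HSPA12A (0.11 and -0.11) did not pass. Those of HSPA12A read 6.38 to 6.71 in the arrays in drug, near the array median.

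**Figure D3:**
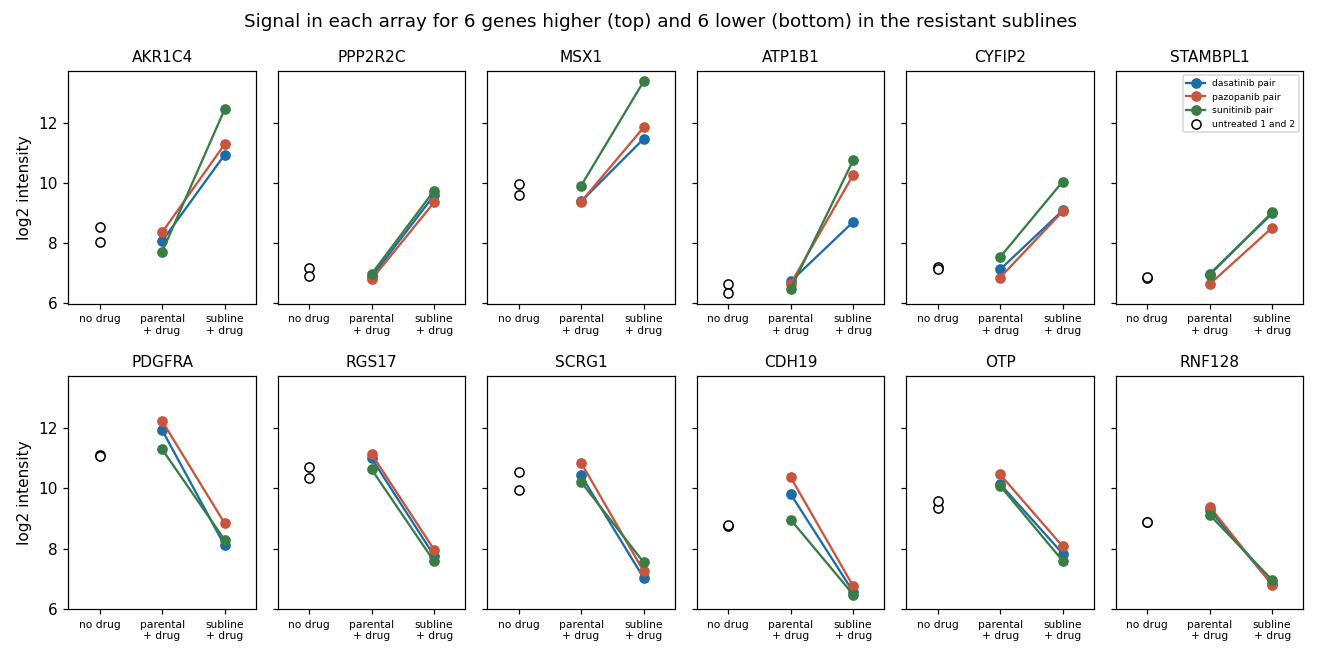
The y axis gives log2 intensity for 6 genes higher (top) and 6 lower (bottom) in the sublines. Lines join the parental array in a drug with the subline in the same drug, and open circles are the 2 untreated arrays; PDGFRA read 11.30 to 12.24 in treated parental cells and 8.10 to 8.84 in the sublines.

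The second kind, in which untreated 1 stood with the sublines and untreated 2 with treated parental cells, included ribosomal RNA and several RNA-binding proteins. RNA28SN5, the 28S ribosomal RNA, read 12.55, 12.44 and 12.45 in treated parental cells and 9.32, 8.61 and 9.35 in the sublines, the largest drop among named genes in the smallest pair. Untreated 1 read 8.35, below all 3 sublines, and untreated 2 read 11.84. RNA18SN5, the 18S ribosomal RNA, had the same order, at 11.40 to 12.11 in treated parental cells, 8.68 to 9.45 in sublines, 8.77 in untreated 1 and 11.30 in untreated 2. Another RNA28SN5 probe fell by 1.61, 1.94 and 1.01 in the 3 pairs. Its untreated arrays stood at 128.2% and 51.4%, so both were nearer the sublines. With the array set as a term the change of the first RNA28SN5 probe turned from -3.39 to 0.10. HNRNPU, an RNA-binding nuclear protein, fell by 1.90 and turned to 0.03 under the same term, while its other probe changed by 0.23. SPATA13, HYKK and ZNF395 fell by 2.03, 1.92 and 1.88 with untreated 1 at 105.6%, 102.3% and 74.7% of the way to the sublines. On the higher side stood TAF15 and ALYREF, RNA-binding proteins, and EIF4G2, a translation factor, with changes of 2.19, 1.63 and 2.05. TAF15 read 9.74 in untreated 1 and 8.23 in untreated 2, against 7.23 to 8.31 in treated parental cells and 9.31 to 10.11 in sublines. ALYREF and EIF4G2 turned to -0.10 and -0.22 with the array set as a term, and the other probes of EIF4G2 changed by 0.15 and -0.14. The call of ALYREF was lost without parental cells in pazopanib (limma, adjusted p = 0.0768) or without PazR (limma, adjusted p = 0.0628), and its other probe changed by 0.24. How much of these differences goes with the array set was not tested beyond that fit.

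The third kind, with both untreated arrays on the side of the sublines, included the cell cycle genes CDK1, CCNA2 and CENPA. CKS2, shown with them, was of the second kind. Cell cycle promoters are known to bind NF-Y at CCAAT boxes and the MuvB complex at CHR elements, and antioxidant genes bind NRF2, so 2 promoters of the former and 1 of the latter are shown with the same capitals. CKS2 lies at chr9:89310945-89311194 (+ strand), CENPA at chr2:26785806-26786055 (+ strand) and GCLM at chr1:93909431-93909680 (- strand), again 250 bases before the start.
CKS2: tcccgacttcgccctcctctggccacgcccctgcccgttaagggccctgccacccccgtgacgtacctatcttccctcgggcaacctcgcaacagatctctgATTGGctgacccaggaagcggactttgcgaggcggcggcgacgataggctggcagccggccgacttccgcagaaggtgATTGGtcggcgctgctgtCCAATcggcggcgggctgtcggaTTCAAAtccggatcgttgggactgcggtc
CENPA: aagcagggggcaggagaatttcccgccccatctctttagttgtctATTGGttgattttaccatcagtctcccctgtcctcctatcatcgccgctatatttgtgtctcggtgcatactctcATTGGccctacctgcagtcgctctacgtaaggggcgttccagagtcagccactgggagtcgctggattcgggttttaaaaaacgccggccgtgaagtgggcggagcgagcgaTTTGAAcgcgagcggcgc
GCLM: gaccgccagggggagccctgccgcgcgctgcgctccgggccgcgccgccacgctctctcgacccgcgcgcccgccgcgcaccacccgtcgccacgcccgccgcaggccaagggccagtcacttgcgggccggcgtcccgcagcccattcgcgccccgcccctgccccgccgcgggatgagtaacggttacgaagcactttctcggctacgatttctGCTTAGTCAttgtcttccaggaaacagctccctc
CKS2 held 3 CCAAT matches and a TTTGAA match 29 to 24 bases before its start. CENPA held 2 CCAAT matches and a TTTGAA match 18 to 13 bases before it. GCLM held a TGACNNNGC match 34 to 26 bases before its start. Stretches not shown varied: CDK1 held 1 CCAAT and 1 TTTGAA match, and CCNA2 1 CCAAT match but no TTTGAA match. PGD held 1 TGACNNNGC and 2 CCAAT matches, TXN only TATAAA matches, and NQO1 none of these motifs.

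Of 34 measured genes of G2 and mitosis, 12 were called higher and 0 lower (35.3% called higher, against 3.49% of all genes), with a median change of 0.71 and medians of 0.74, 0.86 and 0.58 in the dasatinib, pazopanib and sunitinib pairs. CDK1, the kinase that starts mitosis, read 9.85, 9.50 and 9.47 in treated parental cells, 11.12, 11.06 and 10.75 in the sublines, and 11.31 and 10.73 in untreated cells. CENPA, the histone of centromeres, read 8.42 to 8.78 in treated parental cells, 9.63 to 9.92 in the sublines and 9.84 and 9.63 in untreated cells. CKS2, a partner of CDK1, read 11.52 to 11.86, 12.85 to 12.91, and 12.69 and 12.13 in the same order. CCNA2, MAD2L1, CDC20, CCNB1, PTTG1, NUSAP1, NUF2, CKS1B and UBE2C made up the rest, with mean changes of 0.73 to 1.38. In the sunitinib pair CDC20 differed by only -0.03, and its groups overlapped. The calls of CENPA and PTTG1 were lost without parental cells in dasatinib or pazopanib (limma, largest adjusted p = 0.0757 and 0.09), and that of PTTG1 also without DasR or PazR. The median member of the list stood 0.18 lower in the sublines than in untreated 1 and 0.14 lower than in untreated 2, and 33 of the 34 members were higher in each untreated array than in the treated parental mean. Genes of S phase and DNA replication showed the same order, with 3 of 31 called higher (9.68%, against 3.49% of all genes) and 0 lower. Their median change was 0.52, with sublines 0.50 and 0.51 below the 2 untreated arrays. POLA2, a subunit of the primase complex, read 7.99 to 8.40 in treated parental cells, 9.20 to 9.90 in the sublines and 10.30 and 10.24 in untreated cells. CCND1, the cyclin D that carries mitogen signals to the cell cycle, rose from 11.70, 11.41 and 11.45 to 12.41, 13.03 and 13.62, with untreated arrays at 12.47 and 12.17. POLA2 lost its call without parental cells in pazopanib (limma, adjusted p = 0.0612). RFC2 and RFC4, the other S phase genes called, lost theirs without parental cells in pazopanib, DasR or PazR. RFC4 also lost it without parental cells in sunitinib. The largest adjusted p values were 0.0912 for RFC2 and 0.18 for RFC4 (limma), and their other probes did not pass.

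NRF2 targets and oxidant defence had the largest share called of the 52 lists, 8 of 16 higher and 0 lower (50% against 3.49%), with a median change of 0.58. The median member was 0.40 and 0.46 higher in the sublines than in untreated 1 and untreated 2, but the called members differed among themselves. Untreated 1 stood nearer the sublines for NQO1 (80.7%), TXN (79.4%) and GSR (73.5%) and untreated 2 for PRDX1 (83.1%), while both stood nearer treated parental cells for PGD, GCLM, HMOX1 and GCLC. PGD, of the pentose phosphate pathway, read 9.96, 9.87 and 10.38 in treated parental cells, 10.86, 11.68 and 12.09 in the sublines, and 9.80 and 9.75 in untreated cells. GCLM, the modifier subunit of the enzyme that limits glutathione synthesis, read 9.18 to 9.64, 10.32 to 10.47, and 9.71 and 9.75. Its other probe had the opposite sign in every pair (-0.37, -0.38 and -0.51) and did not pass (limma, adjusted p = 0.219). The call of GCLM was lost without parental cells in pazopanib or PazR (limma, largest adjusted p = 0.103), and that of PGD without these or without parental cells in dasatinib (limma, largest adjusted p = 0.0909). NQO1, a quinone reductase, was bright in every array and rose by 0.62, 0.61 and 0.60 in the 3 pairs, although its other probe had a mean change of -0.26 that did not pass. TXN, GCLC, GSR, HMOX1 and PRDX1 rose by 0.54 to 0.84. FTL, a ferritin chain, had a mean change of -1.0 that did not pass (limma, adjusted p = 0.172). Among 13 drug transporters 2 were called higher (15.4%, against 3.49% of all genes), SLCO4A1 by 0.93 and SLC47A1 by 1.05. SLC47A1 lost its call without parental cells in dasatinib or pazopanib, SunR or PazR (limma, largest adjusted p = 0.143), and SLCO4A1 without parental cells in pazopanib (limma, adjusted p = 0.0621). Of 23 glutathione S-transferases and drug-metabolizing enzymes 1 was called higher, a share of 4.35% near that of all genes.

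**Figure D4:**
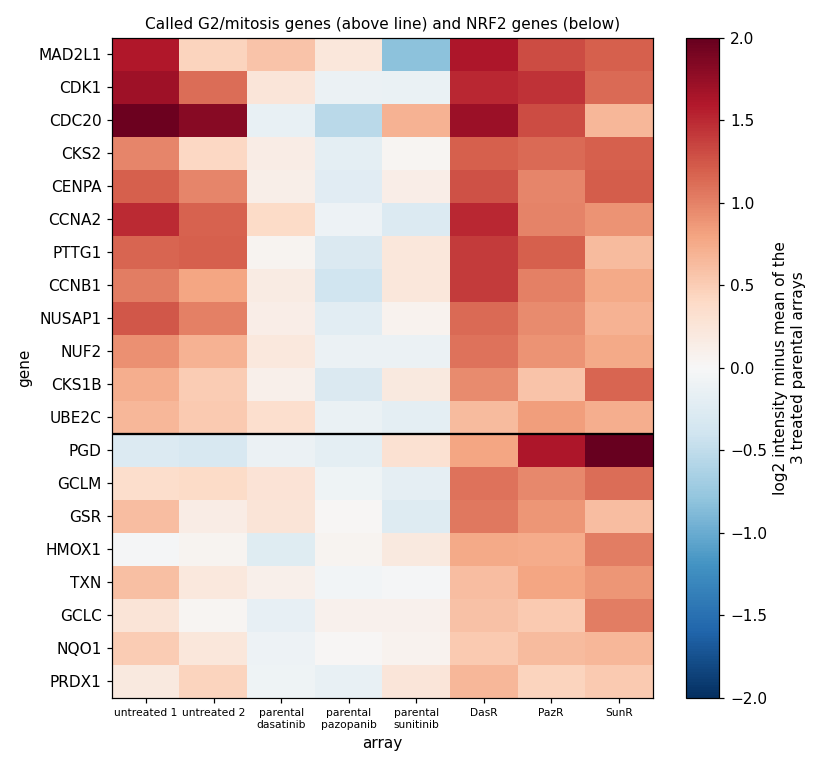
Colors give log2 intensity in each of the 8 arrays minus the mean of the 3 treated parental arrays, for the 12 called genes of G2 and mitosis (above the line) and the 8 called NRF2 genes (below), ordered by change. The untreated columns are mostly as red as the sublines above the line, as for CDK1 at 11.31 and 10.73, and paler below it for several genes, as for PGD at 9.80 and 9.75.

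Further lists had called members in smaller numbers, to be read against the 3.49% of all genes called higher and 3.83% called lower. PP2A subunits and inhibitors had 5 of 18 higher (27.8%) and 2 lower (11.1%). Besides PPP2R2C they included CIP2A, an inhibitor of PP2A, with a change of 1.15. Its untreated arrays stood at 145.2% and 46.4%, so its change was 0.01 with the array set as a term. Its other probe changed by -0.08 and read 6.48 to 6.73 in all arrays, near the array median. The scaffold PPP2R1A fell by 1.13 with untreated arrays at 75.3% and 24.7%. Its change was -0.56 with the array set as a term, and its call was lost without parental cells in dasatinib or pazopanib or without PazR (limma, largest adjusted p = 0.11). Metal handling had 4 of 19 higher (21.1%) and 0 lower, among them the metallothioneins MT1X, which read 11.13 to 11.95 in treated parental cells and 12.76 to 13.25 in the sublines (untreated 11.99 and 11.65), and MT2A, which rose by 1.02 with untreated arrays at 51.8% and -36.0% and changed by 0.12 with the array set as a term. Targets of p53 had 5 of 22 higher (22.7%) and 1 lower (4.55%), led by TIGAR, a regulator of glycolysis, at 1.40 with untreated arrays at 67.6% and 43.5%. BAX and TRIAP1 lost their calls without any of 4 and of 5 arrays (limma, largest adjusted p = 0.126 and 0.146). ZMAT3, the member called lower, lost its call without parental cells in dasatinib (limma, adjusted p = 0.0515). Heat shock and unfolded protein response genes had 4 of 29 higher (13.8%) and 2 lower (6.9%). HSP90AA1 and DNAJA1, cytosolic chaperones, rose by 1.02 and 1.08 with untreated cells at 91.3% and 63.3%, and 115.3% and 73.7%, of the way to the sublines, whereas HSP90AB1, the paralog of HSP90AA1, and CALR, a chaperone of the endoplasmic reticulum, fell by 0.63 and 1.35. CALR lost its call without any one of 4 arrays (limma, largest adjusted p = 0.126). DNAJA1 lost its call without parental cells in pazopanib (limma, adjusted p = 0.0518). The amino acid stress list had 0 of 31 called in either direction, with a median change of 0.34.

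**Figure D5:**
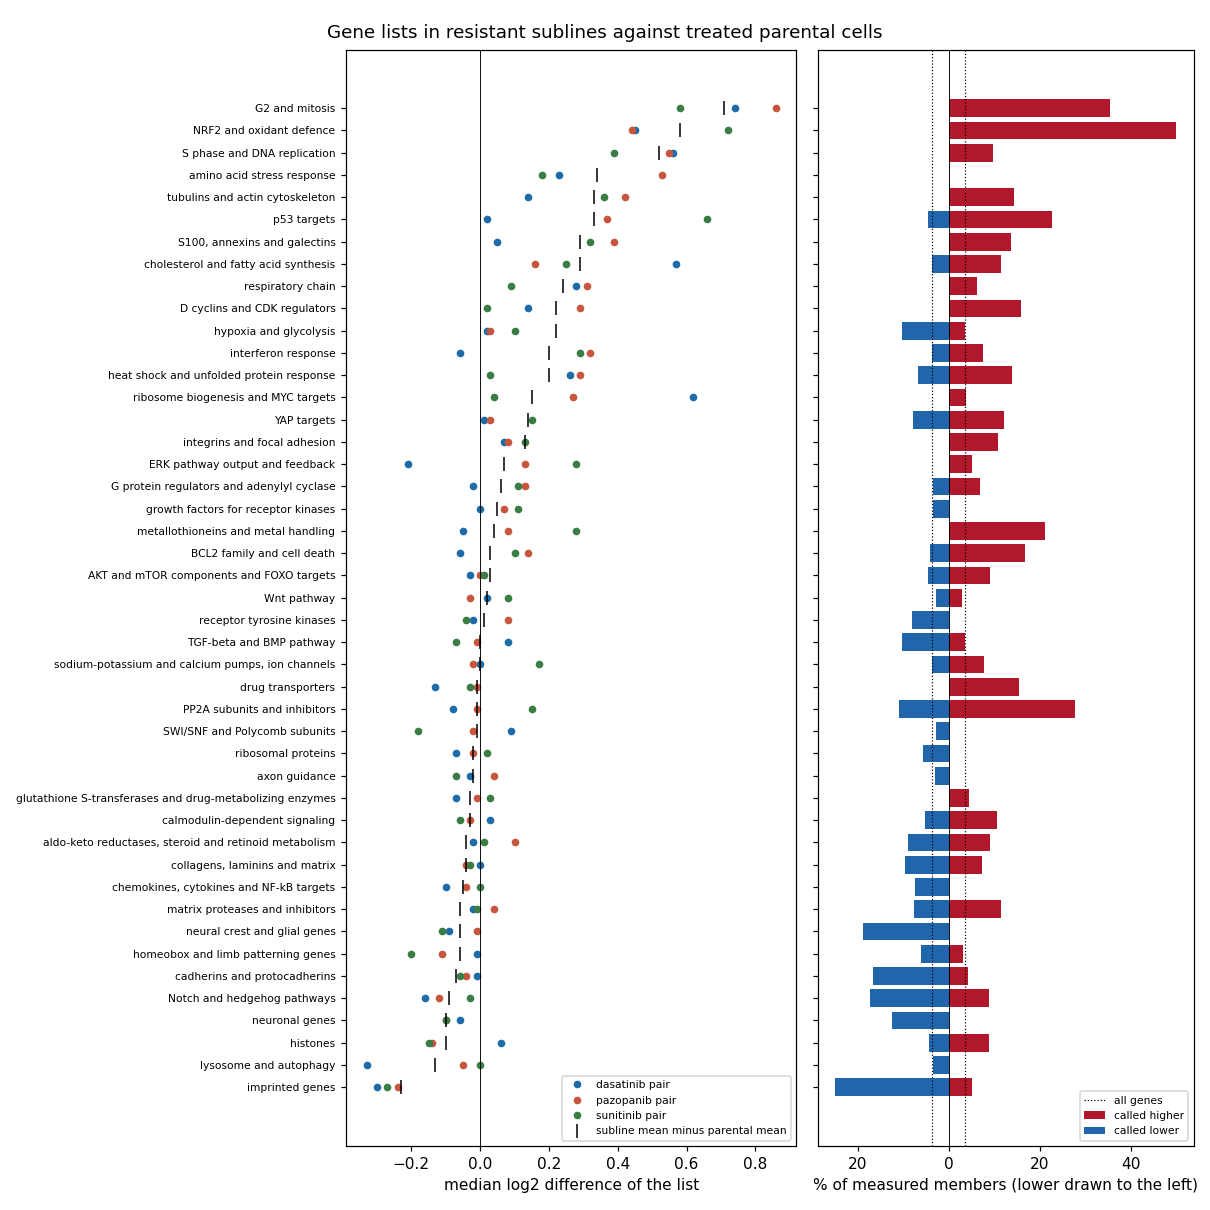
Left, the median log2 difference of each gene list shown in the 3 drug pairs (colored points) and between the group means (bar); right, the percent of measured members called higher (red) or lower (blue), with dotted lines at the 3.49% and 3.83% of all genes. G2 and mitosis has the highest median (0.71) and NRF2 the largest share called (50%).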

How the data were processed

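Total RNA of A204 cells was hybridized to Illumina HumanHT-12 arrays. The authors preprocessed the signals with beadarray, log2-transformed and then quantile normalized them, so the deposited values are log2 intensity, with no detection p-values used here. How background was treated is not given in the sources used here. Equal medians follow from the quantile step, which also hides any shift common to all genes. Gene names came from GEO's platform annotation, checked against RefSeq (GRCh38.p14): 30113 probes had 1 symbol, 8 several and 17986 none, and unnamed probes stayed in every test.

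The 6 arrays in drug were grouped by their labels and tested probe by probe with limma 3.58.1 under R 4.3.3 (an intensity trend in eBayes) and Benjamini-Hochberg adjustment over all 48107 probes at 0.05. The script was tested on simulated data. Since the labels do not say that arrays came from separate cultures, p-values measure the spread between these arrays. The study ranked genes by Signal2Noise between the same groups. To check pairing, each array's deviation from its group mean was correlated with that of its drug-matched partner. The values were 0.126 (dasatinib), 0.184 (pazopanib) and 0.199 (sunitinib), against -0.162 to 0.051 between arrays of different drugs. Deviations from a group mean cancel out within the group, which lowers the unmatched values, so pairing by drug was not settled. Blocking on drug was run as an alternative. Lists were described by counts and medians with 1 probe per gene, the brightest. Tables and figures were made in Python 3.11.15 with pandas 2.3.3 and matplotlib 3.10.9.

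Named genes were PDGFRA, FGFR1 and SMARCB1, the 15 leading shared genes in each direction by their smallest drug-matched difference, up to 4 called genes of smallest p in each of 52 lists, and 3 genes in each direction for each pair alone; 1 of the leading genes and 1 list are not reported here. PDGFRB, AXL, MET, EGFR, EPHA2, EPHA4, FGFR3, FTL, SGCE, HSP90AB1 and marker genes were named after their values were seen. So were the called genes of G2, mitosis and NRF2 beyond 4. The members and lists were chosen with earlier results of these data known, so the shares of lists are no test of enrichment. The fits with the array set as a term and the count with both untreated arrays outside the sublines were added after seeing the data.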

Additional observations from a re-analysis of the deposited data

Results flagged for a closer look

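The 20 genes of ERK pathway output and feedback, such as the DUSP and SPRY families and CCND1, had a median difference of 0.28 in the sunitinib pair and -0.21 in the dasatinib pair, that is, of opposite sign. Each pair has 1 array on each side, so the difference between the pairs was not tested. The pazopanib pair lay between them at 0.13, and 1 gene of the list, CCND1, was called higher over the 3 pairs.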

How the results depend on the processing

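The shared counts (154 higher, 330 lower) and called counts (1302 higher, 1604 lower) stayed within 1.5 times under 50 added to the linear intensity, all 8 arrays, the brighter 50% of the probes, eBayes without a trend or robust, and a second quantile normalization. The fit with the drug as a replicate block called 1758 higher and 1955 lower, with 157 and 333 shared, and changed no call among the 484 shared probes. With 1 probe per gene, 678 were called higher, 753 lower, 92 shared higher and 144 shared lower. The methods' t-test called 3953 higher and 4318 lower unadjusted, and 11 and 28 after Benjamini-Hochberg, with 4 and 15 shared. The 50 leading probes in each direction by Signal2Noise, the ranking in the methods, held 1 of the 15 leading genes in each direction.

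Leaving out 1 array gave 390 to 1639 called higher, 642 to 2251 lower, 138 to 367 shared higher and 310 to 627 shared lower. Leaving out the dasatinib pair gave 334 higher and 446 lower, the pazopanib pair 127 and 206 (76 and 149 shared), and the sunitinib pair 2376 and 2521 (407 and 659 shared). Of 154 called probes of named genes, 106 lost their call without the pazopanib pair, 81 without the dasatinib pair and 7 without the sunitinib pair. Without parental cells in pazopanib 78 lost it, in dasatinib 65 and in sunitinib 12, and without PazR 46, DasR 30 and SunR 19. None turned sign. Of the 30 leading genes 4 lost it without the pazopanib pair, with changes about as large as before: MSX1 (2.77), COXFA4L3 (2.86), ANGPTL4 (2.18) and ALYREF (1.6). A 1.5-fold limit in every pair gave 624 shared higher and 854 lower, and a 4-fold limit 5 and 16. Requiring both untreated arrays to lie over 1 outside the sublines left 25 and 34.

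With the array set as a term, 0 probes were called higher and 1 lower, with 0 and 1 shared, and 23 shared higher and 71 shared lower probes turned sign. Among named genes the sign turned for ALYREF (-0.10), EIF4G2 (-0.22), RNA28SN5 (0.10), HNRNPU (0.03), ADAM9 (-0.27), GNAQ (-0.43), PPP2R2D (-0.07) and ZMAT3 (0.22). The cause was not tested. That fit rests on 1 untreated array in each set, and signal near the array median limits low genes.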

Other observations

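Some of the largest differences were of 1 probe in 1 subline and so are not shared. These probes were over 1 in 1 pair and under 0.5 in the others, and the pairs were not tested since each has 1 array on each side. In DasR, FGFBP1, a secreted carrier of fibroblast growth factors, read 6.88 against 13.59 in parental cells in dasatinib, while PazR and SunR read 14.05 and 13.84. FGFBP2 and CTHRC1, a secreted matrix protein, had differences of -5.72 and -5.0 in that pair, and CFAP95, AGR2 and IL17RB of 4.84, 3.84 and 2.86. In SunR, TMSB4X, which binds actin monomers, read 14.27 against 8.69 in parental cells in sunitinib, and CCL20, a chemokine, and SFRP1, a Wnt inhibitor, were 4.55 and 4.24 higher. The lower probes of the sunitinib pair (EEF1B2, CCDC28B and FAIM2) were high in the parental array in sunitinib, as for FAIM2 at 8.97 against 7.08 and 7.20 in the other treated parental arrays. The EEF1B2 probe read 11.92 there and 11.72 in untreated 2, and its brightest probes changed by 0.08 and 0.12. The other CCDC28B probe differed in all 3 pairs (-0.95, -0.91 and -1.06).

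The pazopanib pair gave smaller differences, of 1.43, 1.41 and 1.39 for ZSWIM6, ZMYND15 and ASNS and of -1.88, -1.46 and -1.39 for EDN3, TPT1 and NR2F1. For 3 of these genes the probes gave a different picture of the other pairs. The brighter EDN3 probe fell in every pair (-1.43, -2.27 and -0.75) and was called (limma, adjusted p = 0.0335). The TPT1 probe was itself called over the 3 pairs (limma, adjusted p = 0.036), while its other probe changed by 0.04. The brighter ASNS probe had differences of 0.86, 2.08 and 0.44.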
